A study of Mus musculus with 9 samples.

Results

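The integrated stress response acts through the transcription factor ATF4, and its targets include the enzymes that make serine. The 31 mouse genes described here form a list that was matched by symbol in the deposited tables. They comprise 3 of the kinases of the translation factor eIF2, 8 transcription factors, 6 feedback and growth regulators, 3 enzymes of serine synthesis, 8 other genes of amino acid metabolism and transport, and 3 genes for secreted or surface proteins. All 31 were found among the 20618 genes of the tables. The matching used no measured value, though the list was chosen with earlier results of these data known.

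The RNA came from CD8+ T cells of wild-type mice, lymphocytes that kill infected or tumour cells, held for 24 h in 1 of 3 media. Each medium had 3 libraries, 9 in all. The media held 2 mM inosine with hypoxanthine, 2 mM inosine alone, or 2 mM glucose. Libraries of the first are called hypoxanthine libraries below, though they held inosine too. Inosine is a purine nucleoside whose ribose can feed glycolysis, and hypoxanthine is the purine base that is left when the ribose is removed. The hypoxanthine dose is printed as 100 M in the labels, a unit taken to be incomplete. Every medium contained 10% dialyzed fetal bovine serum, which is depleted of small molecules. All cultures were sorted for live cells (about 80%) and carry the same batch label, Day 0. The labels give no age or sex of the mice and leave unsaid whether a medium's libraries stem from separate cultures or animals, so p-values here measure only the spread between these libraries. In bulk RNA, fewer cells of a type and less RNA per cell cannot be told apart.

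When eIF2 is phosphorylated, most translation slows while the ATF4 mRNA is translated more. The ATF4 protein, as a dimer with C/EBP or other bZIP partners, then binds C/EBP-ATF response elements and raises genes for amino acid synthesis, amino acid uptake, tRNA charging and feedback inhibitors of the response. In activated T cells ATF4 is known to support amino acid uptake and one-carbon metabolism, for which serine is a main carbon donor.

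The libraries held 30092110 to 48880729 reads assigned to genes, recovered as whole numbers from the deposited values. The values per library are taken to be FPKM, fragment counts relative to transcript length and sequencing depth, as their unit is not named. Differences below are on the log2(FPKM + 1) scale with standard errors (SE) from limma. The threshold for a call was an adjusted p of 0.05 (Benjamini-Hochberg, over all 20618 genes). The 8 CD8 T cell markers were all present, with a summed level of 1475 to 1552 FPKM with hypoxanthine, 940 to 1169 FPKM in inosine and 987 to 1073 FPKM in glucose. Summed markers of other cells were low in every library: 4.49 to 6.74 FPKM for CD4 T cells, mostly Zbtb7b, 8.48 to 11.7 FPKM for NK cells, mostly Eomes, 1.37 to 1.88 FPKM for B cells, 0.457 to 1.06 FPKM for myeloid cells and at most 0.284 FPKM for erythroid cells. The share of FPKM from 13 mitochondrially encoded genes was 6.5% in inosine replicate 2 and 5.84% in hypoxanthine replicate 2, against 4.03% to 4.82% in the other libraries.

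Promoter sequence was looked at for the C/EBP-ATF response element core TGATGNAA, searched on both strands in the 250 bases before each start in the RefSeq promoter table (build GRCm38.p6, identical to mm10 in its coordinates). The table holds 29 of the 31 genes, all but Cth and Eif4ebp1. The core was present in 8 of the 29 (27.6%), against 1056 of all 27025 genes of the table (3.91%). The stricter letters TGATGCAA, a subset of the first, were present in 6 of the 29 (20.7%), against 0.918% of all genes. The 8 genes were Atf3, Chac1, Asns, Nupr1, Pycr1, Jdp2, Pck2 and Vldlr. A match describes the letters of the window and is not evidence of a bound site. The stretches below are those of the 4 matching genes with the smallest adjusted p with hypoxanthine against inosine, shown because they passed most clearly among the genes with a match, and of Atf4, the factor itself. Capitals mark the match, TTGCATCA being TGATGCAA read on the other strand. Where annotated exons cover part of the window, only the bases around the match or the exon-free stretch are printed. Annotated exons cover all 250 bases of the Nupr1 window and 45 of those of Asns, and both matches lie inside annotated exons.
Nupr1, chr7:126625562-126625591, minus strand: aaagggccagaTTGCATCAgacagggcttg
Chac1, chr2:119350992-119351228, plus strand: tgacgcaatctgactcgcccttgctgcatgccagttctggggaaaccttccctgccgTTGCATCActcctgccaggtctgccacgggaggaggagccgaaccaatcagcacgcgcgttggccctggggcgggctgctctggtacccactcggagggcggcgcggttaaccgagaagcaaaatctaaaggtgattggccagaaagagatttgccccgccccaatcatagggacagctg
Asns, chr6:7693214-7693243, minus strand: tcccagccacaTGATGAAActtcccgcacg
Jdp2, chr12:85599372-85599401, plus strand: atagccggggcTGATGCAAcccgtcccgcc
Atf4, chr15:80254934-80255183, plus strand: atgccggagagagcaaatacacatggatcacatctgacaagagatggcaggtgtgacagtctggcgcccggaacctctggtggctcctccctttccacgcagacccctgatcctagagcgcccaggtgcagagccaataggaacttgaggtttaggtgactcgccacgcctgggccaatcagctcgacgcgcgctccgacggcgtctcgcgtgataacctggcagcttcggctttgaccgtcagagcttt
The match began 110 bases before the start in Nupr1, 193 in Chac1, 23 in Asns and 33 in Jdp2. For Jdp2 and Vldlr, windows of other starts of the same gene held no match. A gene with several starts was counted if any of its windows held the core. The Atf4 window held no match to these letters.

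With inosine plus hypoxanthine, most of the listed transcripts stood lower than in inosine alone. These data hold RNA levels only, so eIF2 phosphorylation and ATF4 protein were not measured. In this comparison 17 of the 31 genes were lower, 1 was higher and 13 did not pass the test, where 9.59% of all genes tested were lower and 11.7% were higher. Among the 9947 genes that averaged 1 FPKM or more, 16% were lower and 16.9% were higher. The median difference over the 31 genes was -0.45, against 0.00 over all genes. Against glucose, 17 of the 31 were lower with hypoxanthine, 0 were higher and 14 did not pass, where 9.55% of all genes were lower and 10.8% were higher, or 15.9% and 15% of those that averaged 1 FPKM or more. The median difference was -0.48, against 0.00 over all genes. Inosine against glucose gave 0 calls among the 31 by limma, where 0.0097% of all genes were called, 0.00485% in each direction. Both hypoxanthine comparisons use the same 3 hypoxanthine libraries, so they are not independent. Limma voom on recovered reads gave 17 lower and 1 higher against inosine, where 9.86% and 12.6% of all genes were, and 18 lower and 1 higher against glucose, where 10.2% and 11.6% were. All tests were two-sided.

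Leaving out single libraries moved these counts. The share of all genes called was counted only for the main fit and for voom. Whether calls over all genes fell alike was not tested. Against inosine, 11 genes were lower without hypoxanthine replicate 2 and 11 without hypoxanthine replicate 3, and 9 without inosine replicate 3. Against glucose, 11 were lower without hypoxanthine replicate 3. Leaving out a library of the medium not compared left a difference unchanged and moved only its SE and p-value. Atf5 against inosine, for example, stayed at -0.51 without glucose replicate 1, 2 or 3. In a fit of only the 6 libraries compared, 13 were lower than in inosine, with the calls lost for Eif2ak3 (adjusted p = 0.053), Aldh18a1 (0.081), Xpot (0.083) and Atf5 (0.11), and that of Atf3 lost too (0.076). The summed level of the 31 genes was 678, 653 and 655 FPKM in the 3 libraries with hypoxanthine, 1209, 919 and 1128 FPKM in inosine, and 1257, 949 and 1032 FPKM in glucose. Every library with hypoxanthine lay below every library of the other media, and replicate 2 was the lowest of both inosine and glucose.

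**Figure D1:**
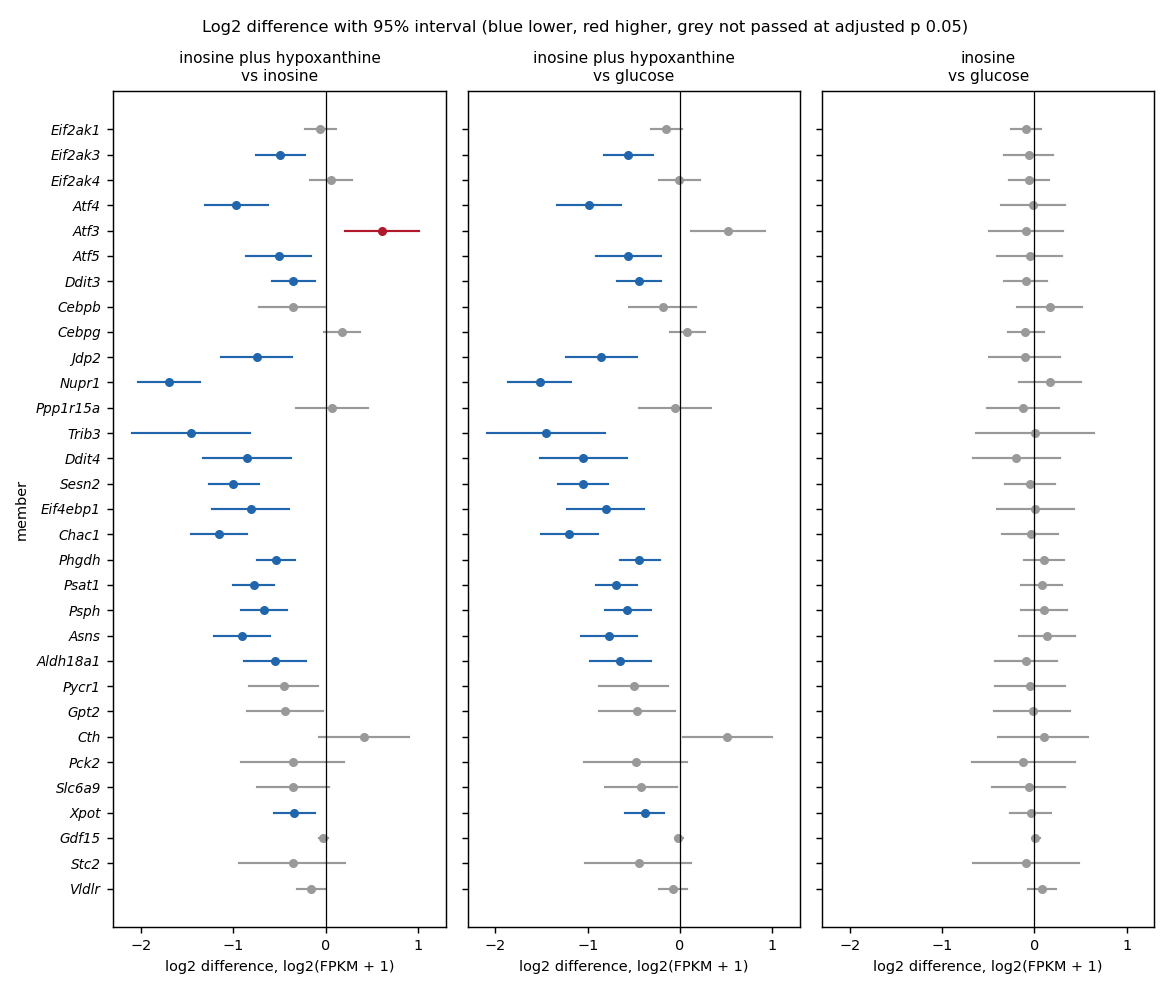
Differences in log2(FPKM + 1) with their 95% intervals for all 31 genes, from limma, for inosine plus hypoxanthine against inosine, for inosine plus hypoxanthine against glucose and for inosine against glucose. With hypoxanthine most intervals lie below 0, from -1.70 for Nupr1, while those of Atf3 in both comparisons and of Cth against glucose lie above it, and those for inosine against glucose all cross 0.

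Of the 3 listed kinases of eIF2, only Eif2ak3 passed the test, as lower. Over all genes, 9.59% were lower than in inosine and 9.55% lower than in glucose. Eif2ak3 encodes PERK, which senses unfolded protein in the endoplasmic reticulum. Its level was 13.3, 12.1 and 12.9 FPKM with hypoxanthine, 21.7, 15.1 and 19.1 FPKM in inosine and 18.6, 20.2 and 19.1 FPKM in glucose. All hypoxanthine libraries were below all others, with a log2 difference of -0.50 against inosine (SE 0.12, adjusted p = 0.016) and of -0.56 against glucose (SE 0.12, adjusted p = 0.01, limma). The call against inosine was lost without hypoxanthine replicate 2 (adjusted p = 0.057), without hypoxanthine replicate 3 (0.054) and without inosine replicate 3 (0.061). Eif2ak1, the heme-regulated kinase, averaged 15.4 ± 1.24 FPKM with hypoxanthine, 16.01 ± 0.433 FPKM in inosine and 17.1 ± 0.74 FPKM in glucose (SD, n = 3 each), and did not pass in either comparison. Eif2ak2, the kinase PKR, is not in the list and, named after its values were seen, did not pass. Its difference with hypoxanthine was positive, at 0.54 against inosine (adjusted p = 0.15, limma) and 0.46 against glucose (adjusted p = 0.21, limma). Eif2ak4, the kinase GCN2 that senses uncharged tRNA, averaged 4.65 ± 0.273 FPKM with hypoxanthine, 4.45 ± 0.563 FPKM in inosine and 4.68 ± 0.489 FPKM in glucose. Its difference with hypoxanthine against inosine was 0.06, with a 95% interval of -0.17 to 0.28.

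Atf4 itself, which lies at chr15:80255184-80257545, was the most abundant transcription factor of the list per unit of length. It stood at 115, 105 and 108 FPKM with hypoxanthine, at 252, 175 and 225 FPKM in inosine and at 260, 188 and 209 FPKM in glucose. The hypoxanthine libraries lay close together and below the lowest library of the other media. Mean FPKM was 1.99 times lower than in inosine and 2.01 times lower than in glucose, and the log2 differences were -0.97 (SE 0.15, adjusted p = 0.0024) and -0.99 (SE 0.15, adjusted p = 0.0023, limma). The call held in all 18 alternatives of both comparisons.

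Nupr1, a small stress-induced chromatin protein, had the largest fold difference of the genes that passed. It was at 2.64, 2.40 and 2.31 FPKM with hypoxanthine, at 11.5, 8.57 and 10.6 FPKM in inosine and at 10.4, 6.86 and 9.79 FPKM in glucose. The groups did not overlap: the mean was 4.18 times lower than in inosine and 3.69 times lower than in glucose. The log2 difference was -1.70 against inosine (SE 0.15, adjusted p = 0.00016) and -1.52 against glucose (SE 0.15, adjusted p = 0.00028, limma), and it passed in all 18 alternatives of both.

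Jdp2, a repressor that pairs with other bZIP factors, was a low transcript at 0.750, 0.565 and 0.733 FPKM with hypoxanthine, 2.22, 1.13 and 2.31 FPKM in inosine and 2.49, 1.68 and 2.02 FPKM in glucose. No hypoxanthine library reached the lowest of the others. The mean was 2.76 times lower than in inosine and 3.02 times lower than in glucose. The log2 differences were -0.75 (SE 0.17, adjusted p = 0.014) and -0.86 (SE 0.17, adjusted p = 0.0078), a scale that understates changes at such levels. The call against inosine was lost without inosine replicate 3 (adjusted p = 0.053).

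Atf5, a related bZIP factor that is also controlled by upstream reading frames, was at 4.22, 3.15 and 4.07 FPKM with hypoxanthine, 7.16, 4.40 and 6.20 FPKM in inosine and 6.65, 5.63 and 5.94 FPKM in glucose. The groups did not overlap, but the highest hypoxanthine library and the lowest inosine library were close. The log2 difference was -0.51 against inosine (SE 0.15, adjusted p = 0.045) and -0.56 against glucose (SE 0.15, adjusted p = 0.032). The call against inosine passed in 8 of 18 alternatives and that against glucose in 10. Against inosine the call was lost without any 1 of the libraries except inosine replicate 2, with adjusted p-values of 0.058 to 0.14. Against glucose it was lost without any 1 of the libraries except inosine replicates 1 and 2, with adjusted p-values of 0.051 to 0.11.

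Ddit3 encodes CHOP, a factor tied to prolonged stress and cell death. It was at 8.82, 8.19 and 8.65 FPKM with hypoxanthine, 11.8, 11.1 and 10.7 FPKM in inosine and 14.2, 10.4 and 11.6 FPKM in glucose. The groups did not overlap, and the difference was small, at -0.35 against inosine (SE 0.10, adjusted p = 0.04) and -0.44 against glucose (SE 0.10, adjusted p = 0.016). Against inosine the call was lost without any 1 of the hypoxanthine or inosine libraries or without glucose replicate 3, with adjusted p-values of 0.065 to 0.11. Against glucose it was lost without hypoxanthine replicate 2 (0.055) or 3 (0.053). Without inosine replicate 2 and hypoxanthine replicate 2, the libraries with the most mitochondrial RNA, it passed in neither comparison (0.16 against inosine and 0.065 against glucose).

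Atf3, a stress-induced bZIP factor that ATF4 can raise, was the gene of the list called as higher with hypoxanthine. Its level was 16.9, 13.9 and 15.0 FPKM with hypoxanthine, 12.3, 7.16 and 10.1 FPKM in inosine and 12.3, 8.96 and 9.90 FPKM in glucose. Every hypoxanthine library was above every library of the other media. The difference was 0.61 against inosine (SE 0.18, adjusted p = 0.039) and 0.52 against glucose (SE 0.18, adjusted p = 0.071), so the second did not pass the test. The call against inosine passed in 8 of 18 alternatives. It was lost without any 1 of the hypoxanthine libraries, without inosine replicate 2 or 3, and without glucose replicate 3, with adjusted p-values of 0.065 to 0.13. Against glucose, Atf3 passed without inosine replicate 1 (0.042) or 2 (0.021). The remaining factors did not pass. Cebpb, a partner of ATF4, averaged 3.73 ± 0.429 FPKM with hypoxanthine, 5.152 ± 1.385 FPKM in inosine and 4.39 ± 0.346 FPKM in glucose. Cebpg, another partner, averaged 9.79 ± 0.671 FPKM with hypoxanthine, 8.58 ± 0.833 FPKM in inosine and 9.22 ± 0.545 FPKM in glucose (SD, n = 3 each). Without inosine replicate 2, Cebpb passed as lower than in inosine (adjusted p = 0.0077).

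**Figure D2:**
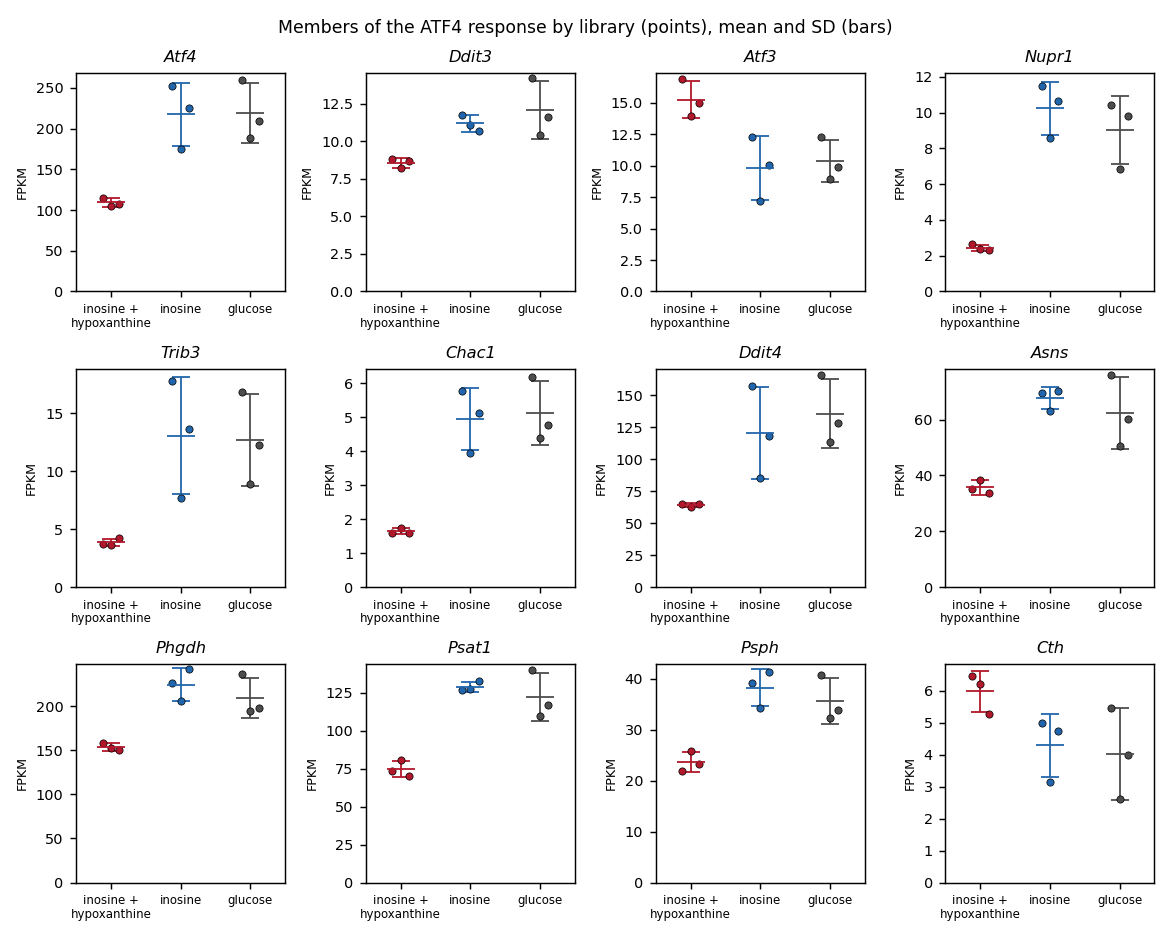
FPKM in each library (points) with the mean and SD of each medium (bars) for 12 genes of the list, on linear axes from 0, with inosine plus hypoxanthine, inosine and glucose from left to right. For Atf4 the 3 hypoxanthine libraries sit at 105 to 115 FPKM, below all others, and for Atf3 they sit at 13.9 to 16.9 FPKM, above all others.

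The feedback and growth regulators were mostly lower with hypoxanthine. Of the 6 genes, 5 were lower in both comparisons, and Ppp1r15a did not pass in either. Among all genes that averaged 1 FPKM or more, 16% were lower than in inosine and 15.9% lower than in glucose. Trib3, a pseudokinase that is induced by ATF4 and inhibits it, was at 3.76, 3.64 and 4.21 FPKM with hypoxanthine, 17.8, 7.72 and 13.7 FPKM in inosine and 16.9, 8.92 and 12.2 FPKM in glucose. The lowest inosine library was well above the highest hypoxanthine library, and the spread within inosine and glucose was wide. The mean was 3.38 times lower than in inosine and 3.28 times lower than in glucose, with log2 differences of -1.46 (SE 0.28, adjusted p = 0.0069) and -1.45 (SE 0.28, adjusted p = 0.0074). Chac1, which degrades glutathione, was at 1.59, 1.74 and 1.61 FPKM with hypoxanthine, 5.78, 3.96 and 5.12 FPKM in inosine and 6.20, 4.39 and 4.78 FPKM in glucose. The groups did not overlap, and the mean was 3.01 times lower than in inosine (-1.16, SE 0.14, adjusted p = 0.00064) and 3.11 times lower than in glucose (-1.2, SE 0.14, adjusted p = 0.00056). Both genes passed in all 18 alternatives of both comparisons.

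Among the inhibitors of growth signalling, Sesn2, a leucine sensor upstream of the kinase complex mTORC1, was at 5.16, 4.02 and 4.88 FPKM with hypoxanthine, 11.9, 8.48 and 10.8 FPKM in inosine and 10.6, 10.6 and 10.9 FPKM in glucose. The groups were well separated, and the mean was 2.22 times lower than in inosine (-1.0, SE 0.12, adjusted p = 0.00073) and 2.29 times lower than in glucose (-1.05, SE 0.12, adjusted p = 0.00058), which held in all 18 alternatives. Ddit4, also called REDD1 and likewise an inhibitor of mTORC1, was at 65.2, 62.2 and 65.2 FPKM with hypoxanthine, 157, 85.3 and 118 FPKM in inosine and 166, 113 and 128 FPKM in glucose. The hypoxanthine libraries were nearly equal, while those in inosine differed widely. The difference was -0.85 against inosine (SE 0.21, adjusted p = 0.02) and -1.05 against glucose (SE 0.21, adjusted p = 0.0084). The call against inosine was lost without hypoxanthine replicate 1 (0.058), 2 (0.062) or 3 (0.064) and without inosine replicate 3 (0.065). Eif4ebp1, whose protein binds the cap-binding factor eIF4E and represses translation, was at 39.8, 42.0 and 41.6 FPKM with hypoxanthine, 84.5, 58.7 and 78.6 FPKM in inosine and 94.8, 57.8 and 69.5 FPKM in glucose. All hypoxanthine libraries were lower than all others, with differences of -0.81 against inosine (SE 0.18, adjusted p = 0.014) and -0.80 against glucose (SE 0.18, adjusted p = 0.015). The first call was lost without inosine replicate 3 (0.055), and the second without hypoxanthine replicate 1 (0.052) or 3 (0.051). Ppp1r15a, which directs the phosphatase that restores eIF2, averaged 9.08 ± 1.03 FPKM with hypoxanthine, 8.73 ± 2.08 FPKM in inosine and 9.50 ± 1.64 FPKM in glucose (SD, n = 3 each). Its difference against inosine was 0.07, with a 95% interval of -0.32 to 0.46.

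All 3 enzymes of serine synthesis were lower with hypoxanthine in both comparisons, and all were abundant transcripts. Of all genes that averaged 1 FPKM or more, 16% were lower against inosine and 15.9% against glucose. Phgdh encodes the first enzyme, which oxidises the glycolytic intermediate 3-phosphoglycerate. It was at 159, 153 and 150 FPKM with hypoxanthine, 226, 205 and 242 FPKM in inosine and 236, 194 and 198 FPKM in glucose. Its highest hypoxanthine library was below the lowest of the other media, and the difference was -0.54 against inosine (SE 0.09, adjusted p = 0.0041) and -0.44 against glucose (SE 0.09, adjusted p = 0.011). Psat1, the aminotransferase that follows, was at 73.6, 80.9 and 70.4 FPKM with hypoxanthine, 127, 127 and 133 FPKM in inosine and 140, 110 and 117 FPKM in glucose. The groups were apart, and inosine was the medium with the least spread. Differences were -0.78 against inosine (SE 0.10, adjusted p = 0.00088) and -0.69 against glucose (SE 0.10, adjusted p = 0.0015). Psph, the phosphatase that releases serine, was at 21.9, 25.7 and 23.2 FPKM with hypoxanthine, 39.2, 34.2 and 41.2 FPKM in inosine and 40.7, 32.2 and 33.8 FPKM in glucose. The groups did not overlap, with differences of -0.67 against inosine (SE 0.11, adjusted p = 0.003) and -0.57 against glucose (SE 0.11, adjusted p = 0.007). Against inosine, the 3 enzymes passed in all 18 alternatives. Against glucose, the call of Phgdh was lost without hypoxanthine replicate 3, at an adjusted p that rounds to 0.05.

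Of the 8 other genes of amino acid metabolism and transport, 3 were lower with hypoxanthine in both comparisons. The share lower among all genes that averaged 1 FPKM or more was 16% against inosine and 15.9% against glucose. Asns, which makes asparagine from aspartate and glutamine, was at 34.97, 38.5 and 33.6 FPKM with hypoxanthine, 69.5, 63.1 and 70.4 FPKM in inosine and 76.1, 50.5 and 60.3 FPKM in glucose. The mean was 1.90 times lower than in inosine without any overlap (-0.91, SE 0.13, adjusted p = 0.002) and 1.75 times lower than in glucose (-0.77, SE 0.13, adjusted p = 0.0044). Aldh18a1, the first enzyme from glutamate to proline, was at 24.8, 19.4 and 22.7 FPKM with hypoxanthine, 39.7, 26.1 and 34.5 FPKM in inosine and 38.0, 34.7 and 33.2 FPKM in glucose. The highest hypoxanthine library was just under the lowest inosine library, and the differences were -0.55 (SE 0.15, adjusted p = 0.03) against inosine and -0.65 (SE 0.15, adjusted p = 0.016) against glucose. Leaving out hypoxanthine replicate 2 or 3, or inosine replicate 1 or 3, ended the first call for Aldh18a1, with adjusted p-values of 0.077 to 0.098. The second call ended without hypoxanthine replicate 2 (0.058) or 3 (0.051) or glucose replicate 1 (0.058).

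Xpot, the exporter of tRNA from the nucleus, was at 18.1, 16.2 and 17.8 FPKM with hypoxanthine, 25.2, 19.2 and 22.7 FPKM in inosine and 22.1, 23.1 and 23.7 FPKM in glucose. The groups did not overlap, and the differences were -0.34 (SE 0.10, adjusted p = 0.035) against inosine and -0.38 (SE 0.10, adjusted p = 0.023) against glucose. The first call was lost without any 1 of the libraries except inosine replicate 2 and glucose replicate 1, with adjusted p-values of 0.052 to 0.11. The second was lost without hypoxanthine replicate 2 or 3 or glucose replicate 2 or 3, with adjusted p-values of 0.061 to 0.078.

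The other 5 did not pass by limma on log2(FPKM + 1), though Pycr1 passed against glucose by limma voom on recovered reads (adjusted p = 0.037). Pycr1, the last enzyme of proline synthesis, averaged 1.71 ± 0.266 FPKM with hypoxanthine, 2.75 ± 0.78 FPKM in inosine and 2.85 ± 0.524 FPKM in glucose (adjusted p = 0.09 against inosine and 0.065 against glucose). Gpt2, the mitochondrial alanine aminotransferase, averaged 1.53 ± 0.112 FPKM with hypoxanthine, 2.51 ± 0.899 FPKM in inosine and 2.52 ± 0.58 FPKM in glucose (adjusted p = 0.13 against inosine and 0.11 against glucose). Without inosine replicate 2, Pycr1 passed against inosine (0.013) and glucose (0.018), as did Gpt2 (0.024 against inosine and 0.042 against glucose). Slc6a9, a glycine transporter, averaged 1.11 ± 0.143 FPKM with hypoxanthine, 1.74 ± 0.592 FPKM in inosine and 1.84 ± 0.504 FPKM in glucose. Pck2, the mitochondrial enzyme that makes phosphoenolpyruvate, averaged 7.51 ± 0.981 FPKM with hypoxanthine, 10.3 ± 3.96 FPKM in inosine and 10.99 ± 2.54 FPKM in glucose. Cth, which makes cysteine from cystathionine, was the other gene of the list besides Atf3 with all hypoxanthine libraries above those in inosine, at 6.47, 6.21 and 5.25 FPKM with hypoxanthine and 4.98, 3.15 and 4.74 FPKM in inosine. Glucose libraries held 5.47, 2.60 and 3.99 FPKM. The differences for Cth were 0.41 against inosine (adjusted p = 0.22) and 0.51 against glucose (adjusted p = 0.13). It passed against glucose without glucose replicate 1 (0.046), just as Slc6a9 passed against inosine without inosine replicate 2 (0.037).

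The genes for secreted or surface proteins gave no call by limma on log2(FPKM + 1) over all 9 libraries. Stc2, a secreted glycoprotein, averaged 5.23 ± 0.403 FPKM with hypoxanthine, 7.32 ± 2.84 FPKM in inosine and 7.72 ± 2.34 FPKM in glucose. Vldlr, a lipoprotein receptor, averaged 0.148 ± 0.0349 FPKM with hypoxanthine, 0.287 ± 0.117 FPKM in inosine and 0.215 ± 0.0532 FPKM in glucose, and without inosine replicate 2 it passed against inosine (0.037). Gdf15, a secreted stress signal, was close to absent, with 1 read over the 3 libraries with hypoxanthine, 6 reads in inosine and 3 reads in glucose, and no fold is given.

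**Figure D3:**
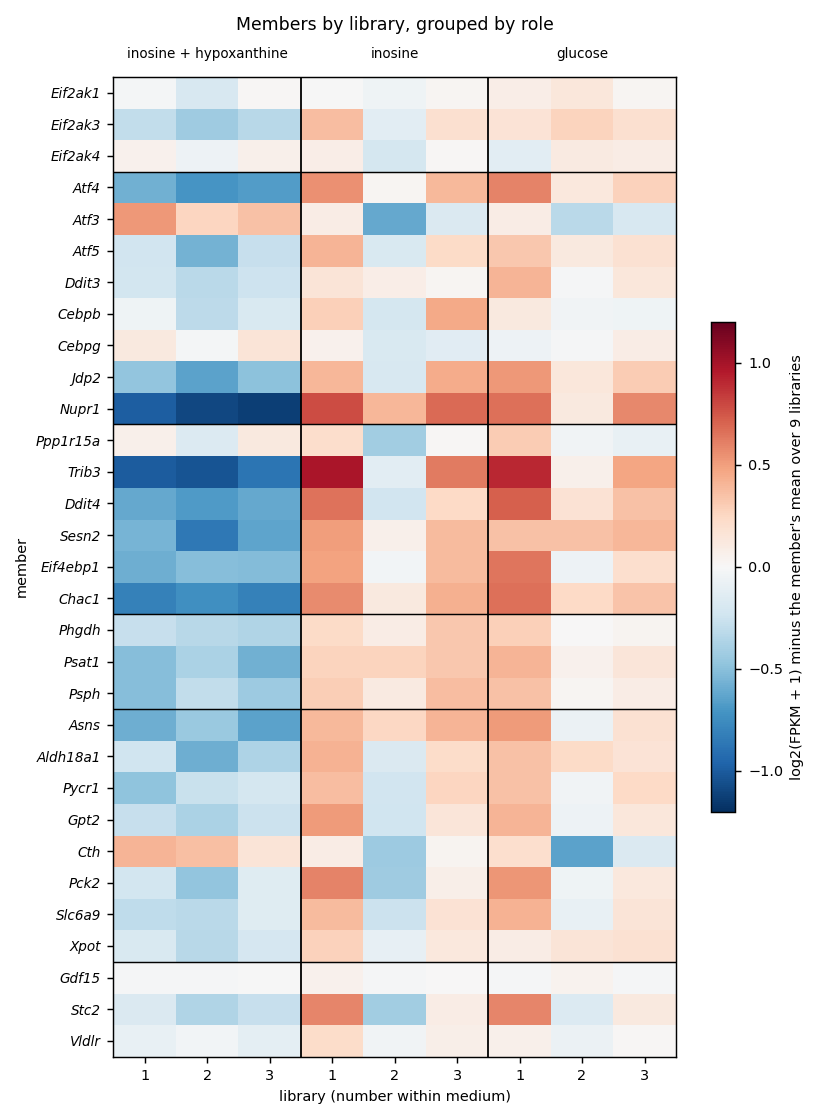
Level of each of the 31 genes in each of the 9 libraries relative to the gene's mean over all libraries, on the log2(FPKM + 1) scale, with the libraries of inosine plus hypoxanthine, inosine and glucose from left to right. The hypoxanthine libraries are below the mean for most rows and above it for Atf3 and Cth, and inosine replicate 2 is paler than the other inosine libraries.

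By separation of libraries alone, 18 of the 31 genes had every hypoxanthine library below every inosine library, where 15.6% of all genes did, and 2 had every one above, where 18.7% of all genes did. Against glucose these counts were 23, where 17.8% of all genes did so, and 1, where 19.8% did. Gpt2 separated against inosine but did not pass. In the authors' deposited table, 21 of the 31 were lower with hypoxanthine than in inosine at an adjusted p under 0.05 and 1 was higher, where 11.6% and 11.1% of all genes with an adjusted p were. Against glucose, 23 of the 31 were lower and 1 was higher in the authors' deposited table, where 13.8% and 12.7% of all genes were. The gene with the higher level was Atf3 in both tables. Beyond the genes that limma called lower, both deposited tables had Pycr1, Gpt2, Slc6a9 and Vldlr as lower with hypoxanthine. Against glucose, Stc2 and Pck2 were lower there too. Of the 8 genes with the TGATGNAA core, 4 were lower, 1 was higher and 3 did not pass by limma with hypoxanthine against inosine. Of the 21 other genes in the promoter table, 12 were lower, 0 higher and 9 did not pass. By that test 9.59% of all genes were lower and 11.7% higher.

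No gene of the list passed the test between inosine and glucose. Of the 31 genes, 0 passed by limma, 0 had an unadjusted p under 0.05 and 0 passed by limma voom on recovered reads (0% of all genes). By the authors' deposited table, 0 of the 31 passed, where 0.00506% of all genes were lower and 0% higher. The differences ran from -0.20 for Ddit4 to 0.17, with a median of -0.05. In Atf4 the difference was -0.01, with a 95% interval of -0.36 to 0.33. For Psat1 it was 0.08, with an interval of -0.14 to 0.30, and for Trib3 it was 0.01, with an interval of -0.63 to 0.65. These intervals leave room for differences of moderate size. None of the 31 had libraries that separated the media, where 2.83% of all genes were apart with inosine lower and 2.23% with inosine higher.

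The spread between libraries of 1 medium was larger for the listed genes than for expressed genes in general in inosine and in glucose, a difference that was not tested. For the 29 of them that averaged 1 FPKM or more, the SD of log2(FPKM + 1) between a medium's libraries had a median of 0.0929 with hypoxanthine, 0.274 in inosine and 0.212 in glucose. Over the 9947 genes of that level it was 0.0872 with hypoxanthine, 0.13 in inosine and 0.0944 in glucose. In inosine, all 29 were below the medium's mean in replicate 2 (median deviation -0.311), and 28 were above it in replicate 1 (0.200). In glucose, 25 were below in replicate 2 (-0.182) and 24 were above in replicate 1 (0.209). The median over all expressed genes stayed within -0.021 and 0.029 in these 4 libraries. Inosine replicate 2 also had the highest mitochondrial share, 6.5%, while glucose replicate 2 had the lowest, 4.03%, and the part of mitochondrial RNA in this spread was not tested. Without the 2 libraries of highest mitochondrial share, 18 of the 31 were lower with hypoxanthine than in inosine and 17 were lower than in glucose. The share of all genes was not counted for this fit.

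**Figure D4:**
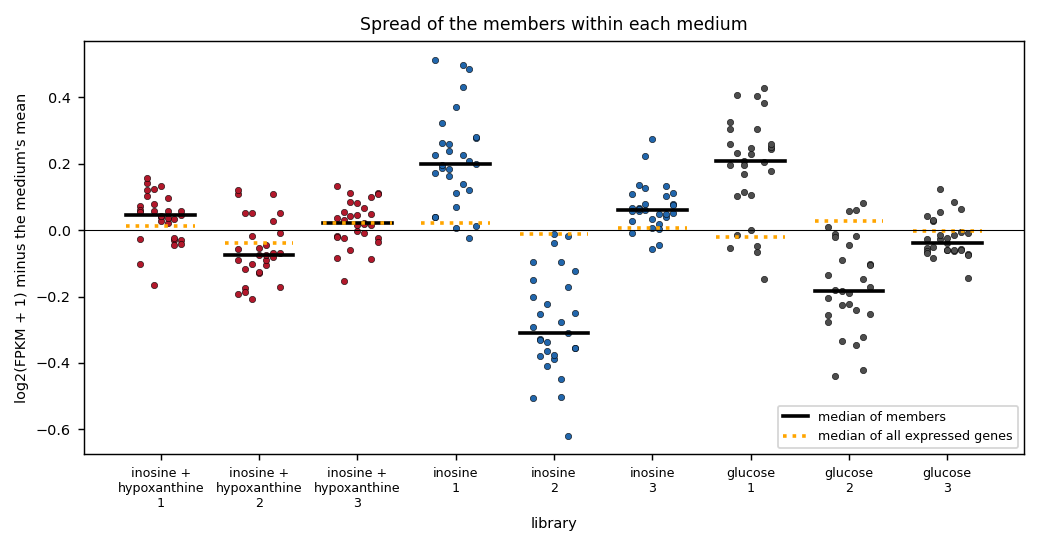
Deviation of each expressed gene of the list from the mean of its medium in each library, on the log2(FPKM + 1) scale (points, with the median as a line), with the media in the order inosine plus hypoxanthine, inosine and glucose. The points with hypoxanthine stay near 0, those of inosine replicate 2 are all below 0, with a median of -0.311, and those of glucose replicate 1 are mostly above it, with a median of 0.209.

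Genes around the response also stood lower with hypoxanthine than in inosine, with 0 higher in each of 6 related lists. Over all genes 9.59% were lower, and 16% of those that averaged 1 FPKM or more. Of 19 cytosolic tRNA synthetases, which charge tRNA with amino acids, 16 were lower, with a median of -0.52. Nars, the asparagine enzyme, averaged 65.5 ± 0.568 FPKM with hypoxanthine and 126.5 ± 10.1 FPKM in inosine (-0.94, adjusted p = 0.00028), and Tars, the threonine enzyme, 36.9 ± 1.31 FPKM with hypoxanthine and 66.6 ± 2.60 FPKM in inosine (-0.83, adjusted p = 7.5e-05). Of 11 one-carbon and glycine enzymes, the pathway that serine feeds, 6 were lower, with a median of -0.46. The glycine cleavage carrier Gcsh averaged 24.5 ± 0.412 FPKM with hypoxanthine and 48.8 ± 0.80 FPKM in inosine (-0.96, adjusted p = 4.2e-05). Shmt1, the cytosolic form of the enzyme that splits serine, averaged 32.4 ± 0.522 FPKM with hypoxanthine and 46.8 ± 1.21 FPKM in inosine (-0.52, adjusted p = 0.00046). Mitochondrial Shmt2 averaged 77.0 ± 9.91 FPKM with hypoxanthine and 118 ± 31.6 FPKM in inosine, and did not pass (adjusted p = 0.064).

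Of 16 genes of the endoplasmic reticulum stress response outside the PERK branch, 9 were lower (9.59% of all genes), with a median of -0.47. The chaperone Hsp90b1 averaged 258 ± 8.57 FPKM with hypoxanthine and 429 ± 12.7 FPKM in inosine (-0.73, adjusted p = 0.00015), and the chaperone Hspa5 260.3 ± 4.64 FPKM with hypoxanthine and 373 ± 18.6 FPKM in inosine (-0.52, adjusted p = 0.00082). Of 8 genes of the mitochondrial route to ATF4 and mitochondrial chaperones, 5 were lower, with a median of -0.60, among them Hspd1 at 232 ± 2.73 FPKM with hypoxanthine and 393 ± 2.80 FPKM in inosine (-0.76, adjusted p = 0.00011). Oma1 and Dele1, genes of the route itself and named after their values were seen, did not pass. Their differences were 0.23 and 0.07 (adjusted p = 0.41 and 0.71, limma). Of 13 genes of eIF2, its exchange factor eIF2B and their partners, 6 were lower, with a median of -0.28. Eif2b1, a subunit of the exchange factor, averaged 22.9 ± 1.14 FPKM with hypoxanthine and 38.8 ± 4.16 FPKM in inosine (-0.73, adjusted p = 0.0011). Of 9 amino acid transporters known as ATF4 targets, 3 were lower, with a median of -0.18. The leucine transporter Slc7a5 averaged 44.1 ± 6.79 FPKM with hypoxanthine and 85.6 ± 29.8 FPKM in inosine (-0.89, adjusted p = 0.028), while the glutamine transporter Slc1a5 averaged 133 ± 9.85 FPKM with hypoxanthine and 113 ± 15.1 FPKM in inosine and did not pass (adjusted p = 0.17).

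Against glucose, the genes lower with hypoxanthine were 13 of the 19 tRNA synthetases, 7 of the 11 one-carbon and glycine enzymes and 10 of the 16 genes of the endoplasmic reticulum. They were also 5 of the 8 genes of the mitochondrial list, 7 of the 13 of eIF2 and eIF2B and 4 of the 9 transporters, with 0 higher in each list, where 9.55% of all genes were lower. In inosine against glucose 0 genes of these lists were called in either direction. The CD8 T cell markers went the other way: 6 of 8 were higher with hypoxanthine than in inosine, where 11.7% of all genes were, among them Cd8a at 173 ± 6.02 FPKM with hypoxanthine and 81.5 ± 11.2 FPKM in inosine (1.09, adjusted p = 0.00019), and 1, Lck, was lower (-0.26, adjusted p = 0.039). Under median-of-ratios scaling, 17 of the 31 were lower with hypoxanthine than in inosine and 17 lower than in glucose. The share of all genes was not counted under that scaling. Under voom the median of all genes was 0.03 against inosine and 0.013 against glucose.

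**Figure D5:**
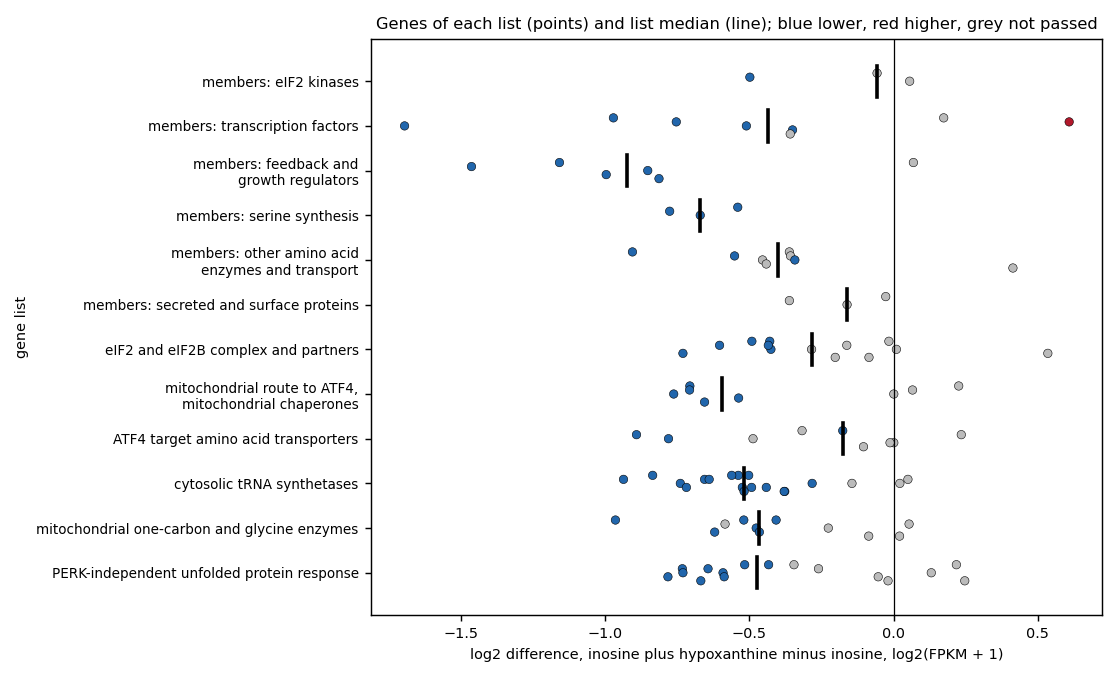
Differences in log2(FPKM + 1) between inosine plus hypoxanthine and inosine for the 31 genes by role (rows named members) and for each related list (points, coloured by call), with the median of each row as a vertical line. Medians of the 6 related lists run from -0.60 for the list of the mitochondrial route and chaperones to -0.18 for the amino acid transporters.

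Some of the transcripts share exon bases with a neighbouring gene. In the GENCODE annotation of GRCm38.p6, 11 of the 31 do so. Of these, 3 share at least 10% of their exon bases with a single gene of the opposite strand: Slc6a9, Cebpb and Psph. Neighbours were not summed, and Eif2ak1 shares 8.59% with Aimp2 and 3.03% with Ankrd61, both of the opposite strand. As the strand of the libraries is not stated, reads of such pairs cannot be told apart there. FPKM and the share of recovered reads moved together for most genes of the list, and apart for Vldlr and Gdf15, whose log2 ratio of the 2 had an SD of 0.207 for Vldlr over the 9 libraries and of 0.318 for Gdf15 over those with a read.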

How the data were processed

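The data are RNA-seq of sorted CD8+ T cells from wild-type mice in 3 media, with 3 libraries each. The submitters' processing notes name DESeq2 1.38.3, Subread 2.0.1, featureCounts, HISAT2 and the build mm10, with no role given. The deposited values per library are taken to be FPKM made by the authors, since the files do not name the unit. The deposited group mean is a signal made by the authors that behaves as a read count divided by size factors and averaged over 3 libraries. The log2 fold changes, p-values and adjusted p-values were deposited by the authors, and with hypoxanthine their fold changes run the other way (positive where hypoxanthine is lower).

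Testing used limma 3.58.1 (trend and robust; R 4.3.3) on log2(FPKM + 1), pseudocount 1, over all 20618 genes and 9 libraries in 1 fit (6 residual degrees of freedom), with no filter. Whole reads were recovered from the 2 deposited means of a medium, as the whole numbers that fit both within 1e-06, which gave all 9 libraries for 20481 genes (99.34%), all 31 members included. They served for depth (30092110 to 48880729 reads, 16245 to 17217 genes above 0) and limma voom. Samples were grouped by their treatment label. The test was run first on simulated data. Coordinates and promoters are from RefSeq on GRCm38.p6, and exons from GENCODE.

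The 31 genes, the related lists and the markers were chosen with earlier results of these data known. All 31 genes are named. Values in every library are given for genes that passed in at least 1 comparison with a mean of at least 1 FPKM. At most 4 genes of a related list are named by rule, 2 by smallest adjusted p and 2 by highest mean FPKM. Genes named outside this rule are marked as named after their values were seen. Alternatives covered scaling, pseudocount 0.1, an FPKM filter, the limma settings, voom, a replicate block, a fit of 6 libraries, a fold minimum of 0.5 and leaving out each library.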

Additional observations from a re-analysis of the deposited data

How the results depend on the processing

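Each of the 31 genes had 18 alternatives per comparison (17 for Gdf15 and Vldlr). With hypoxanthine, 495 of 556 values against inosine and 508 of 556 against glucose kept their side of the threshold. In inosine against glucose all 556 did so. Of the values that passed in the main fit or in the alternative, 0 changed direction. Differences that passed in neither could change sign, as in inosine against glucose for Atf4 (-0.13 to 0.13) and Trib3 (-0.23 to 0.32). Apart from voom, the share of all genes called was not counted for the alternatives. Genes lower with hypoxanthine than in inosine numbered 17, and 9 to 21 with 1 library left out. Genes lower than in glucose numbered 17, and 11 to 19 with 1 library left out. The 1 gene higher than in inosine, Atf3, became 0 under median-of-ratios scaling, without the trend and robust settings, and in a fit of only the 6 libraries compared, and 0 to 1 with 1 library left out. The 0 genes higher than in glucose became 1 with a filter of mean FPKM of at least 1, by voom, and in a fit of only the 6 libraries compared, and 0 to 1 with 1 library left out. The cause of these moves was not tested. The motif share of 27.6% became 31% with the table's bases after the start included and 20.7% for TGATGCAA.

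The labels do not say whether equal library numbers pair the samples, so the numbers were not used as pairs. The deviations of same-numbered libraries from their medium's mean correlated from -0.27 to 0.64 over 9947 genes, over 0.1 in 4 of 9 pairs. For numbers 1, 2 and 3 the correlation was 0.41, 0.64 and 0.02 between hypoxanthine and inosine libraries. It was 0.08, -0.20 and -0.06 between hypoxanthine and glucose, and 0.40, 0.26 and -0.27 between inosine and glucose. A library correlated best with its own number in 8 of 18 cases. Among 29 listed genes, most were above their medium's mean in replicate 1 (21 with hypoxanthine, 28 in inosine and 24 in glucose) and below it in replicate 2 (22 with hypoxanthine, 29 in inosine and 25 in glucose). With a replicate block, 18 genes were lower and 1 higher with hypoxanthine against inosine, and 20 were lower and 1 higher against glucose. The next 2 alternatives were chosen after seeing the data. A replicate block in a fit of only the 6 libraries compared gave 16 lower and 1 higher against inosine, and 10 lower and 1 higher against glucose. Its lost calls were Ddit4 against inosine (adjusted p = 0.051, limma) and, against glucose, Phgdh (0.05), Psat1 (0.052), Xpot (0.052), Ddit3 (0.065), Asns (0.073), Eif4ebp1 (0.078) and Psph (0.083). Without the 2 libraries of highest mitochondrial share, 18 were lower and 0 higher against inosine, and 17 lower and 1 higher against glucose. With 3 libraries per medium, small differences such as those of inosine against glucose cannot be told from 0, and genes under 1 FPKM are limited by depth.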
